A study of Mus musculus with 4 samples.

Results

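The cytosolic ribosomal protein genes were followed through the list of genomic regions bound by FLAG-tagged MIXL1. They were chosen by symbol from the RefSeq gene table of mm10 (GRCm38.p6): protein-coding genes named Rpl or Rps with a number, and Rplp0, Rplp1, Rplp2 and Rpsa, without the Rps6k kinase genes and without genes named as like. This gave 76 genes out of 21523 protein-coding genes that could be placed on chromosomes 1 to 19 and X, 46 for the large and 30 for the small ribosomal subunit. Peaks were assigned by distance, within 5 kb and within 50 kb of the gene span, so the peak positions themselves chose the genes described as near a peak. These counts are given as a description, without a test.

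MIXL1 is a paired-type homeodomain transcription factor of the primitive streak. The libraries came from mouse epiblast stem cells, pluripotent cells that resemble the epiblast after implantation, carrying a doxycycline-inducible, FLAG-tagged Mixl1. They were kept on a feeder layer of irradiated fibroblasts in medium with activin A at 20 ng/mL and bFGF at 10 ng/mL, moved to suspension as embryoid bodies in serum for 2 days, and given 1 µg/mL doxycycline for the last 24 h. In all, 2 libraries were made from anti-FLAG M2 precipitates and 2 from input chromatin, all of them from doxycycline-treated cells. MIXL1 was supplied by the induced gene, and cells without doxycycline were not analysed here. The deposited file is 1 list of 9598 peaks for the whole series, of which 9403 lie on the chromosomes used, with positions and no height or score. No value below therefore has a replicate error, the depth is unknown, and the labelled cell type could not be checked against marker expression.

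Ribosomal proteins are the structural proteins of the cytosolic ribosome and assemble with ribosomal RNA in the nucleolus before the subunits are exported. Their genes are short, scattered over the genome and active in nearly every cell, and many carry small nucleolar RNA (snoRNA) genes in their introns. Their messenger RNAs typically begin with an unbroken stretch of pyrimidines, the 5′ terminal oligopyrimidine tract, through which mTOR signalling adjusts their translation. Several are mutated in Diamond-Blackfan anaemia, a failure of red cell formation.

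The start regions of the 5 genes with an annotated start site less than 1.5 kb from a MIXL1 peak are shown. The nearest peak covers the start site of Rpl4. It lies 52 bp from that of Rps7, 225 bp from that of Rps12, 888 bp from that of Rps21 and 1281 bp from that of Rpl27. Only at Rpl4 and Rps7 does a peak reach into the printed stretch, and the bases under it are not marked. Each start region runs from 80 bases before the RefSeq start site through the first 20 transcribed bases, read 5′ to 3′ on the gene's strand in GRCm38.p6. Capitals mark the run of pyrimidines that holds the start site or, where the start site is a purine, that base alone. Rpl4 lies on the plus strand (chr9:64173307-64173406), Rps7 on the minus strand (chr12:28635934-28636033), Rps12 on the minus strand (chr10:23787190-23787289), Rps21 on the plus strand (chr2:180257299-180257398) and Rpl27 on the plus strand (chr11:101442165-101442264).
Rpl4: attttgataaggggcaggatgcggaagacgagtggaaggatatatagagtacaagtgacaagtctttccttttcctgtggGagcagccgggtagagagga
Rps7: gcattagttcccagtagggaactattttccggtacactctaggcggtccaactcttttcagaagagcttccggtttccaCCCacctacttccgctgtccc
Rps12: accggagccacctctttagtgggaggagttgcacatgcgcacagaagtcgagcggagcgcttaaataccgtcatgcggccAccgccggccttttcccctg
Rps21: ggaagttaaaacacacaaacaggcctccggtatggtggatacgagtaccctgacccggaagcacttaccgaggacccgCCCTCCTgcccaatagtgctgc
Rpl27: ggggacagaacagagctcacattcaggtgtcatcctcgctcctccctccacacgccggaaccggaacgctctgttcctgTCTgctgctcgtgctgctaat

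A MIXL1 peak lay within 5 kb of 13 of the 76 genes (17.1%), which was close to the 16.3% of all protein-coding genes. Within 50 kb the count was 31 genes (40.8%), against 37.5% of all protein-coding genes. The peak overlapped the gene span itself at 6 genes (7.89%), against 12.6%. Ribosomal protein genes are much shorter than most genes, with a median span of 3.17 kb (0.982 to 11.8 kb) against 17.4 kb, and a short span offers less room for a peak. Among the 7155 protein-coding genes whose span falls in the same range, 3.48% overlapped a peak, 8.23% had one within 5 kb and 32.9% within 50 kb. These genes of like span share only the range, and their median span of 5.25 kb is longer than that of the ribosomal protein genes. At 5 kb the ribosomal protein genes thus stood near the share of all genes and at 2.08 times the share of genes of like span. None of these differences was tested.

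**Figure D1:**
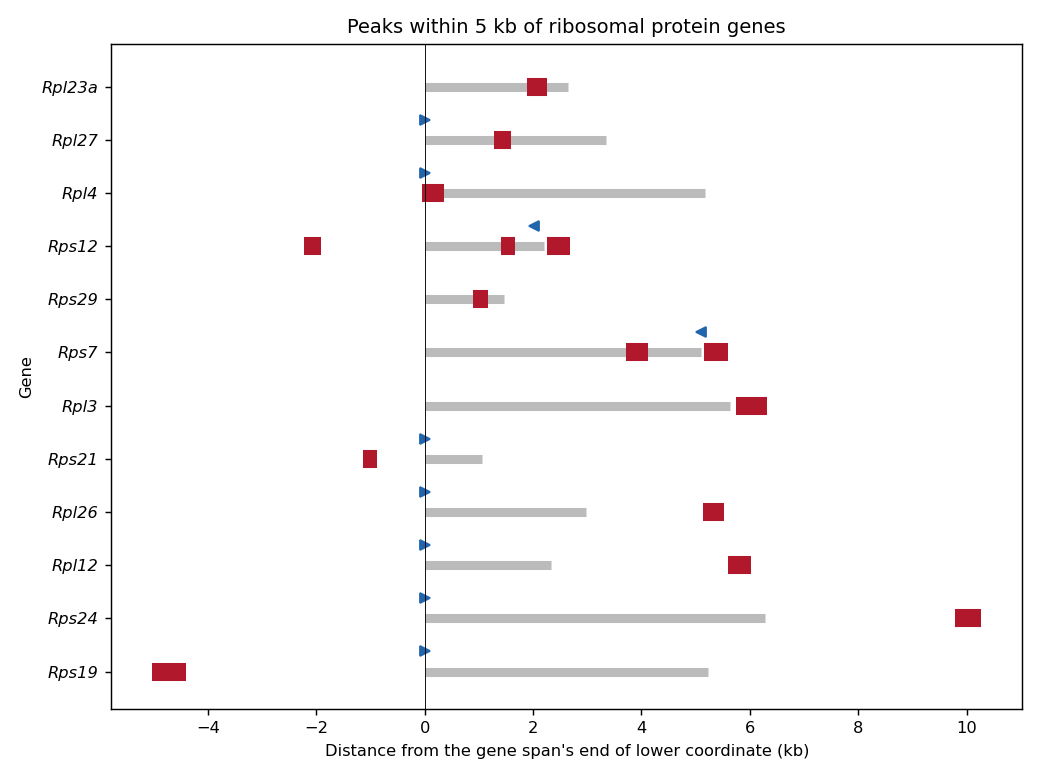
Peaks (red) within 5 kb of 12 of the 13 genes, drawn against each gene's span (grey) in kb from its end of lower coordinate, with blue arrowheads at the annotated start site and its direction for the 9 genes that have one. Rps7 has peaks on both sides of its start site, Rps12 has 3 peaks, and the peak of Rpl4 covers its start site.

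Among large-subunit genes, 6 of 46 (13.0%) had a peak within 5 kb, and 3 of these overlapped it. Rpl4 encodes a protein whose long loop lines the exit tunnel for the growing peptide. Its peak of 405 bp (chr9:64173344-64173748) covered the annotated start site. Rpl23a encodes a protein at the mouth of the exit tunnel, where factors that receive new peptides dock. Its peak of 382 bp (chr11:78182815-78183196) lay inside the gene and overlapped the snoRNA gene Snord42b (chr11:78183059-78183113). Rpl27, one of the Diamond-Blackfan anaemia genes, held a peak of 307 bp (chr11:101443526-101443832) that began 1281 bp downstream of the start site.

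The other 3 large-subunit genes had their peak just outside the span. Rpl3, whose protein reaches towards the peptidyl transferase centre, had a peak of 566 bp (chr15:80083530-80084095) 124 bp beyond its end of higher coordinate. Rpl26, another Diamond-Blackfan anaemia gene, had a peak of 390 bp (chr11:68906693-68907082) 2.16 kb past its downstream end. Rpl12 encodes a protein at the base of the ribosomal stalk. Its peak of 419 bp (chr2:32967307-32967725) lay 3.26 kb past the downstream end.

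Among small-subunit genes, 7 of 30 (23.3%) had a peak within 5 kb, and 3 overlapped it. Rps12, whose protein sits in the beak of the small subunit, had the most, with 3 peaks. The peak upstream was 436 bp wide (chr10:23787434-23787869) and ended 225 bp before the start site. The peak inside the gene was 265 bp wide (chr10:23786586-23786850) and began 359 bp downstream of the start site, and the last, of 306 bp (chr10:23782961-23783266), lay 1.92 kb past the downstream end. Rps7, a Diamond-Blackfan anaemia gene, had 2 peaks on either side of its start site. The upstream peak of 432 bp (chr12:28636005-28636436) came within 52 bp of the start site, and the peak inside the gene, of 416 bp (chr12:28634555-28634970), began 983 bp downstream of it. Rps29, a Diamond-Blackfan anaemia gene as well, held a peak of 271 bp (chr12:69158614-69158884) inside its span.

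The remaining small-subunit genes near a peak had it outside the span. The peak of Rps21 was 247 bp wide (chr2:180256245-180256491) and lay 888 bp upstream of its outermost start site. Rps24 had a peak of 477 bp (chr14:24500465-24500941) 3.51 kb past its downstream end, with 3 more peaks within 50 kb on the same side. Rps19, the gene most often mutated in Diamond-Blackfan anaemia, had a peak of 619 bp (chr7:24879571-24880189) 4.40 kb upstream. For Rps19 alone among the 13 genes, another protein-coding gene, Dmrtc2, was nearer to the peak, at 1.92 kb.

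Rps19, at 4.40 kb, was the last gene inside the 5 kb window, and Rpl21, at 7.20 kb, the next outside it. Rps3, at 42.8 kb, was the last gene inside the 50 kb window. Of the 13 genes within 5 kb, 11 had 1 peak, Rps7 had 2 and Rps12 had 3, which makes 16 different peaks. With respect to the gene span, 5 of them lay inside, 1 overlapped an end and 10 lay outside. Of the 12 peaks at genes with a known start site, 1 covered it, 4 lay upstream and 7 downstream.

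A RefSeq start site was matched for 56 of the 76 genes. Those not matched included Rpl3, Rpl7, Rpl8, Rpl17, Rpl21, Rpl23a, Rpl29, Rpl30, Rpl32, Rpl36, Rplp1, Rps14, Rps20, Rps27a and Rps29. Of the 56, 4 genes (Rpl4, Rps7, Rps12 and Rps21) had a peak within 1 kb of a start site. This is 7.14%, beside 3.16% of the 17274 protein-coding genes with a start site and 2.92% of those in the same span range. The count is small, and the difference was not tested. Rps7 lies on chromosome 12, which held 1541 of the 9403 peaks (16.4%), and without chromosomes 12 and X the shares were 5.88% and 3.11%.

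A further 18 genes had their nearest peak between 5 and 50 kb away. For the large subunit they were Rpl21 (7.20 kb), Rpl23 (11.1 kb), Rpl11 (17.5 kb), Rpl28 (18.8 kb), Rpl29 (21.3 kb), Rpl7 (25.5 kb), Rpl14 (29.0 kb), Rpl24 (31.3 kb), Rpl13 (32.3 kb), Rpl10a (39.8 kb), Rpl19 (41.2 kb) and Rpl17 (41.7 kb). For the small subunit they included Rps18 (16.9 kb), Rps28 (17.7 kb), Rps14 (20.9 kb), Rps2 (38.9 kb) and Rps3 (42.8 kb). Rpl11 encodes a protein that, with 5S RNA, binds the p53 regulator MDM2, and Rps14 is among the genes lost in the 5q- syndrome. For each of these 18 genes another protein-coding gene was nearer to the peak. The peak of Rpl21 lay 0.429 kb from Rasl11a, that of Rpl28 lay 1.05 kb from Ube2s, and those of Rpl23, Rpl24 and Rpl14 overlapped Cwc25, Cep97 and Entpd3.

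Counting a peak only for the protein-coding gene nearest to it separated the windows. Within 5 kb, 15 of the 16 peaks had a ribosomal protein gene as the nearest, at 12 genes (15.8%), against 14.9% of all protein-coding genes and 6.60% of those in the same span range. Extending the limit to 50 kb added no ribosomal protein gene, so the count stayed at 12 genes (15.8%), against 19.8% of all protein-coding genes and 11.6% of genes of like span. Of the 37 peaks between 5 and 50 kb, 33 had another gene as the nearest, and 18 of these overlapped that gene. The other 4 belonged to genes that already had a near peak, 3 of them to Rps24 and 1 to Rpl3.

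**Figure D2:**
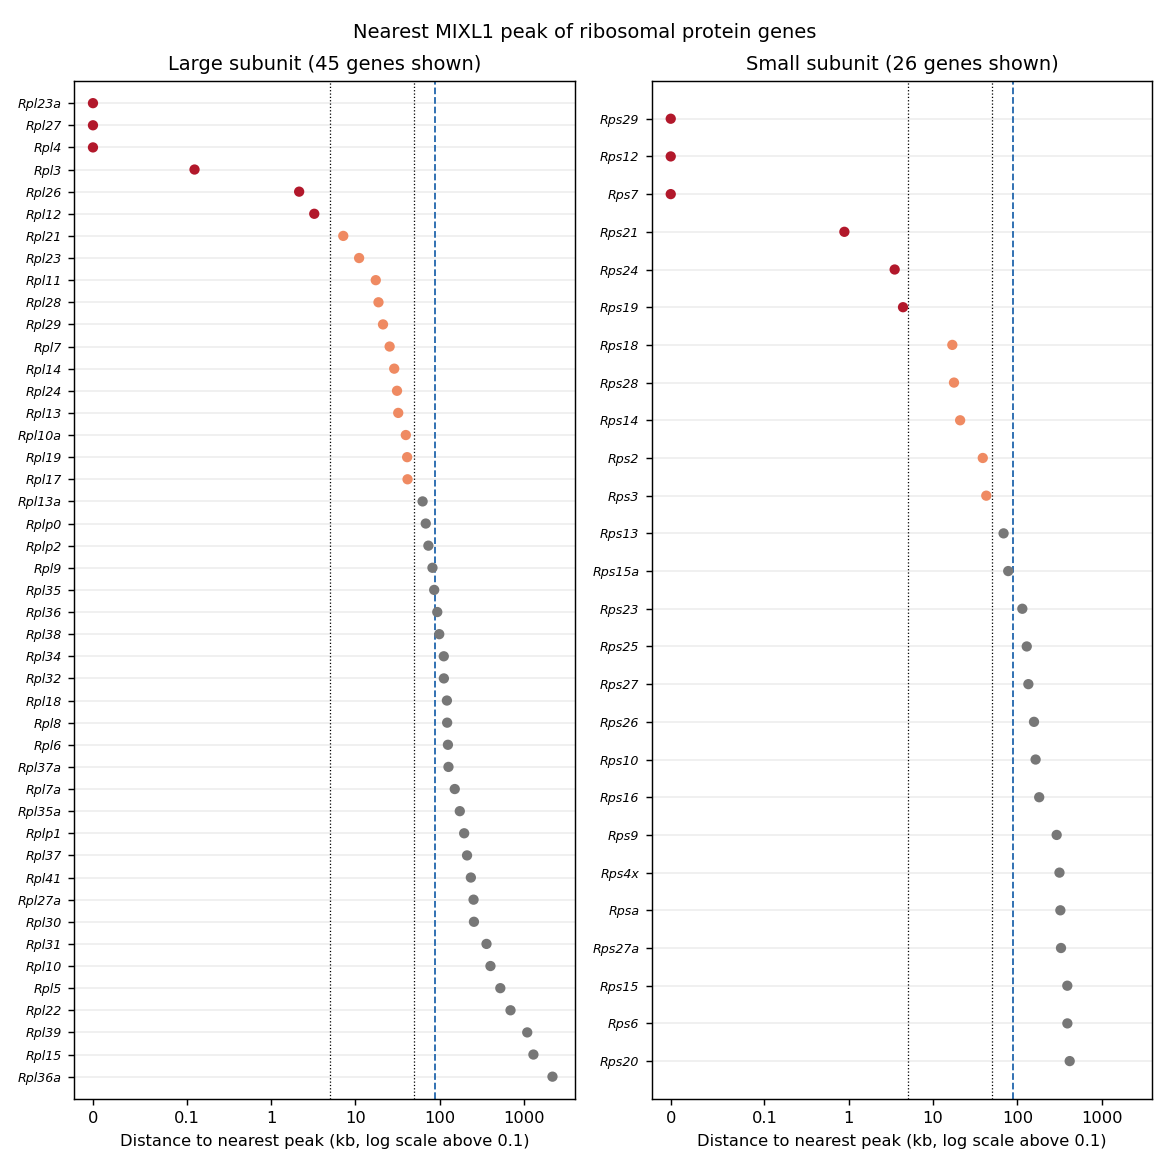
Distance in kb from 71 of the 76 gene spans to the nearest peak, for the large (left) and small subunit (right), on an axis that is linear up to 0.1 kb and logarithmic beyond. Red points are within 5 kb (12 genes shown), orange within 50 kb (17 more) and grey farther (42); dotted lines mark 5 and 50 kb and the dashed line the median of all protein-coding genes, 89.3 kb.

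The other 45 genes had no peak within 50 kb. The nearest peak was 50 to 100 kb away for 10 of them, 100 to 200 kb for 16, 200 to 500 kb for 14 and over 500 kb for 5. The 5 genes farthest from a peak were Rpl36a (2181 kb), Rpl15 (1296 kb), Rpl39 (1095 kb), Rpl22 (693 kb) and Rpl5 (525 kb). Rpl5, whose protein joins Rpl11 on the 5S RNA, thus stood far from any peak while Rpl11 had one within 50 kb. The stalk genes Rplp0, Rplp2 and Rplp1, which encode the proteins that recruit elongation factors, were 68.5, 73.6 and 196 kb from a peak. Rps6, which encodes the target of the S6 kinases, was 392 kb away, and Rpl38, a gene required for translation of certain Hox messenger RNAs, 99.0 kb.

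Over all 76 genes the median distance to a peak was 84.3 kb, with quartiles of 18.6 and 200 kb, against 89.3 kb for all protein-coding genes and 99.6 kb for genes of like span. For genes of like span with at least 4 other protein-coding genes within 50 kb, the median was 86.0 kb. The small-subunit genes had a median of 73.2 kb (0 to 417 kb) and the large-subunit genes 90.0 kb (0 to 2181 kb), so the groups overlapped.

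Distances differed between chromosomes. Both genes on chromosome 12, Rps7 and Rps29, overlapped a peak. The peak of Rps29 lay in a 1-Mb window with 22 peaks and those of Rps7 in one with 18. All 4 genes on chromosome X (Rps4x, Rpl10, Rpl39 and Rpl36a) were 316 to 2181 kb from a peak. Chromosome 7, with 14 of the genes, had 4 within 50 kb, while chromosome 11, with 7, had 5 within 50 kb and 3 within 5 kb. These counts per chromosome are small and stand without the share of all protein-coding genes on the same chromosome. They therefore cannot tell ribosomal protein genes from other genes there. Without chromosomes 12 and X, 11 of 70 genes (15.7%) had a peak within 5 kb, against 16.1% of all protein-coding genes and 8.16% of genes of like span, and 4 genes (5.71%) overlapped one, against 3.37% of genes of like span. The part of the denser chromosome in the remaining values was not tested.

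Ribosomal protein genes also lay among more neighbours, with a median of 4 other protein-coding genes within 50 kb (1 to 11) against 3 for all protein-coding genes. The 3460 protein-coding genes of like span with at least 4 such neighbours had a peak within 5 kb in 8.61% of cases and within 50 kb in 35.1%. Restricting the genes of like span to those with at least 4 neighbours thus moved their share at 5 kb from 8.23% to 8.61%. These genes had a median of 5 neighbours (4 to 19), so they were not matched to the ribosomal protein genes in number of neighbours. The 13 genes near a peak had a median span of 3.35 kb and 4 neighbours, and the other 63 had 3.16 kb and 3 neighbours.

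**Figure D3:**
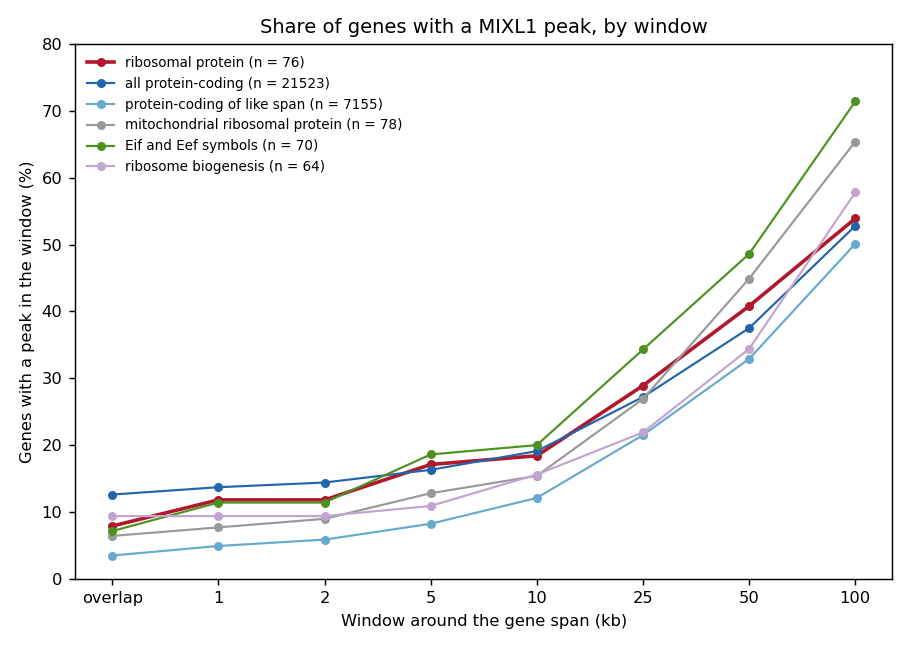
Percentage of genes with at least 1 peak overlapping the gene span or within a window of 1 to 100 kb around it, for ribosomal protein genes, all protein-coding genes, protein-coding genes of like span and 3 related lists. Ribosomal protein genes run above the genes of like span in every window (17.1% against 8.23% at 5 kb) and close to all protein-coding genes from 5 kb on (17.1% against 16.3% at 5 kb).

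Most peaks close to ribosomal protein genes were narrower than the median of the whole list. The 16 peaks within 5 kb had a median width of 411 bp (247 to 635 bp), against 485 bp for the whole list, whose quartiles are 350 and 726 bp. Only 3 of the 16 (18.8%), among them those of Rps19 and Rpl3, reached the list's median. Among the 634 peaks within 5 kb of genes of like span the median was 425 bp, and 40.5% reached the list's median. All 6 peaks that overlapped a ribosomal protein gene fell below it. The 37 peaks between 5 and 50 kb had a median width of 418 bp, close to that of the 16 near peaks. Of these 37, 16 reached the list's median and 3 were 1 kb or wider, the widest of 4291 bp at 26.5 kb from Rpl7. With the wider 50% of all peaks alone, no ribosomal protein gene overlapped a peak. Within 5 kb, 3 (3.95%) had one, against 8.65% of all protein-coding genes and 3.49% of genes of like span. The list gives no peak height, so width is the only size measure of a peak.

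**Figure D4:**
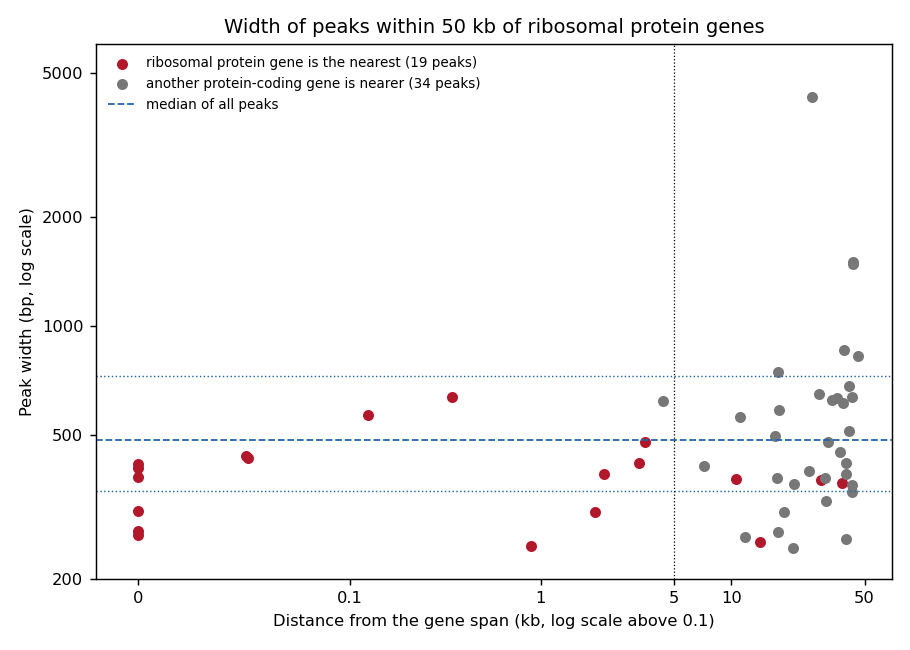
Width in bp (log scale) of the 53 peaks within 50 kb of a ribosomal protein gene against their distance from the gene span in kb, on an axis that is linear up to 0.1 kb and logarithmic beyond. Red points are the 19 peaks for which the ribosomal protein gene is the nearest protein-coding gene and grey points the 34 with a nearer one; the dashed line is the median width of all peaks (485 bp) and the dotted horizontal lines their quartiles.

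Small nucleolar RNA genes, which guide chemical modification of ribosomal RNA, lay inside 29 of the 76 genes, 58 in all. Of these 29 host genes, 5 (17.2%) had a peak within 5 kb, namely Rpl3, Rpl4, Rpl12, Rpl23a and Rps12, as had 8 of the other 47 (17.0%). A peak overlapped 3 host genes (10.3%) and 3 of the others (6.38%). Snord42b in Rpl23a was the only snoRNA gene inside a ribosomal protein gene to be overlapped by a peak. The next nearest were LOC115487513 in Rps12, at 43 bp, and Snord43 in Rpl3, at 624 bp.

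The promoter windows, 250 bases before to 50 after each start site, were searched for pyrimidine runs and for homeodomain motifs. Of the 66 start sites of the 56 genes, 20 (30.3%) lay in a run of at least 5 pyrimidines, against 8.67% of the 21045 start sites of protein-coding genes, and 20 (30.3%) had C as the starting base, against 13.9%. Among the 13 start sites of the 9 genes with a peak within 5 kb, 2 (15.4%) lay in such a run, at 2 of the 9 genes (Rps21 and Rps24). A run was counted only where it held the annotated start base. The accuracy of the annotated starts was not tested, so a gene without such a run may still have a pyrimidine tract. In the sequences above, the start site of Rps21 lay in a run of 7 pyrimidines and those of Rps7 and Rpl27 in runs of 3. The annotated start of Rpl4 was a G, and its printed stretch held a run of 14 pyrimidines that ended 5 bases upstream of it. The start of Rps12 was an A, with a run of 11 pyrimidines from its base 9 to 19.

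Homeodomain proteins commonly bind TAAT, and paired-type homeodomains can bind as dimers to palindromes of it. TAAT (either strand, also inside the longer motifs) was found in 29 of the 66 windows (43.9%), against 51.7% of all windows. The median GC content was 58.2% in the 66 windows and 56.7% in all windows, and its part in the motif shares was not tested. TAATTA, which reads the same on both strands, was found in 1 window (1.52%, against 4.47%). Palindromes of TAAT and ATTA with 2 or 3 bases between them were in none of the 66 windows, against 0.309% and 0.366% of all windows. Among the 13 start sites of the genes with a peak within 5 kb, 3 windows (23.1%) held TAAT. They were those of Rpl4 with 6 matches and of Rps7 and Rpl27 with 1 each. The 13 windows belong to 9 genes, so TAAT was found at 3 of 9 genes. Rps19, Rps21 and Rps24, without TAAT, have more than 1 window each. The 13 windows had a median GC content of 60.3%, and that of Rpl4 had 40.7%. A peak reached into the windows of 3 genes, covering 93 bases at Rpl4, 199 at Rps7 and 26 at Rps12. None of the 6 matches of Rpl4 lay under its peak, the 1 match of Rps7 did, and the window of Rps12 had no match. Letters outside the promoter windows, which include most of the sequence under the peaks, were not analysed here.

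Related genes of the translation machinery were counted in the same way, beside the same 16.3% and 37.5% of all protein-coding genes. Mitochondrial ribosomal protein genes, which serve the separate ribosome of the mitochondrion, had a peak within 5 kb at 10 of 78 (12.8%) and within 50 kb at 35 (44.9%). Genes with the symbols Eif or Eef, which are translation factors and also enzymes that modify them, such as the kinase gene Eif2ak4 and the methyltransferase gene Eef2kmt, had one at 13 of 70 (18.6%) and 34 (48.6%). Ribosome biogenesis genes had one at 7 of 64 (10.9%) and 22 (34.4%). These genes are longer, with median spans of 7.69, 15.3 and 14.2 kb, so their shares cannot be set directly beside those of ribosomal protein genes. The shortest genes of these lists that overlapped a peak were Mrps23, Mrps31 and Mrpl48, then Eif5, Eef2kmt and Eif1a, and then Fbl, Pes1 and Riok2. Fbl encodes fibrillarin, the methyltransferase that works with box C/D snoRNAs, and Eif5 the activator of GTP hydrolysis at start codon recognition.

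Genes with related names were counted apart. None of the 14 protein-coding genes named as like, as retrotransposed copies or otherwise outside the rule had a peak within 5 kb, and 6 had one within 50 kb, the nearest being Rpl10l (6.15 kb), Rpl36al (23.9 kb) and Rpl3l (24.7 kb). Rps3a1 and Fau, which encode ribosomal proteins under other symbols, were 397 and 63.7 kb from a peak. Rack1, whose protein binds the head of the small subunit, had a peak at 0.391 kb. Pseudogenes carrying a ribosomal protein symbol with the suffix -ps had a peak within 5 kb at 12 of 317 (3.79%) and within 50 kb at 90 (28.4%), against 3.60% and 21.6% of all 10234 pseudogenes, and none overlapped a peak. The nearest were Rps12-ps2 (0.390 kb), Rpl10-ps2 (0.582 kb) and Rpl7a-ps2 (0.749 kb). The last lies on chromosome 12 and has 26 peaks within 50 kb.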

How the data were processed

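The submitters' processing notes name mm10 and the tools MACS2, SAMtools, Bowtie2 and CASAVA 1.8.2. How peaks were thresholded and filtered, whether input served as control and whether replicates were pooled is not explained in the sources used here. The name of the deposited list carries short tags that may refer to a cutoff and filters, but their meaning is not given. For each peak, the file deposited by the authors holds a chromosome, a start and an end, and nothing else. Starts were made 1-based. Genes came from RefSeq's GRCm38.p6 table of gene spans, and 340 genes placed in the first 3 Mb of a chromosome were left out, because no assembled sequence lies there. Distance is 0 where peak and span overlap. Start sites and promoter letters came from RefSeq's promoter table of the same build (250 bases before, 50 after). A start site's run of pyrimidines counts bases on both sides of it.

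The genes and lists were chosen with earlier results of these data known. The rule for named genes took each gene within 5 kb with its peaks, each within 50 kb, the 5 farthest, those on chromosomes 12 and X, and up to 3 of each related list, here the shortest among ties. Some genes that this rule takes are not reported here. Genes named for their known roles, and those outside the symbol rule, were added. The comparison with genes of like span, and with those that have at least 4 neighbours, was added after the data were seen. Alternatives changed the windows, peaks, chromosomes and gene assignment. Distances were checked on simulated peaks. Python 3.11.15, numpy 2.4.6, pandas 2.3.3, scipy 1.17.1 and matplotlib 3.10.9 were used.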

Additional observations from a re-analysis of the deposited data

Results flagged for a closer look

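The list held 195 peaks on contigs outside the assembled chromosomes, which no comparison with ribosomal protein genes used.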

How the results depend on the processing

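With the wider 50% of the peaks, 3 ribosomal protein genes (3.95%, from 13) had a peak within 5 kb, against 8.65% of all protein-coding genes. At 5 kb their share was thus no longer close to that of all genes. Within 50 kb the count was 15 (19.7%, from 31), against 21.1%. The peaks themselves fell to 3 (from 16) and 19 (from 53). The median distance was 172 kb (from 84.3), against 210 kb for all protein-coding genes. In this setting 0 genes overlapped a peak (from 6), against 1.54% of genes of like span. Likewise 0 had one within 1 kb of a start site (from 4), against 1.24% of all protein-coding genes with a start site. Assigning each peak to its nearest protein-coding gene left 12 genes within 50 kb. Under the other settings tried each count stayed within 1.5 times the reported one. They left out chromosomes 12 and X or 1-Mb windows of 20 or more peaks, or used peak centres, span ends or merged peaks. They also added the like genes, or used windows of 1, 2 and 10 kb or 25 and 100 kb. Span ends could hardly move the count at 5 kb, since the genes are short. Merging joined peaks, leaving 7545, but took no covered base away, so it could not lower the count. The share at 5 kb fell below that of all protein-coding genes with the like genes added (14.4% against 16.3%) and without chromosomes 12 and X. It was also lower with windows of 1 kb (11.8% against 13.7%), 2 kb (11.8% against 14.4%) and 10 kb (18.4% against 19.1%). Under the remaining settings listed here the share at 5 kb was higher than that of all protein-coding genes. With span ends alone, 17.1% of ribosomal protein genes stood beside 8.40% of all protein-coding genes within 5 kb. Settings for overlap and for start sites were chosen after the data were seen. One list without replicates limits every value, since neither the spread between cultures nor the depth can be read from it.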
